A study of Homo sapiens with 4 samples.

Results

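AREG, EREG, HBEGF, TGFA, BTC and EPGN encode ligands of the epidermal growth factor (EGF) family, EGFR, ERBB2 and ERBB3 encode their receptors, and ERRFI1 encodes an inhibitor of these receptors. These 10 genes were taken by name from the 58174 genes of the deposited table, and all 10 were found there. The ligands are made as membrane proteins and are released by metalloproteases of the cell surface, such as ADAM17. A released ligand binds a receptor on the same or a neighbouring cell, receptors pair, and their tyrosine kinases start RAS-MAPK and PI3K-AKT signalling. ERBB2 binds no known ligand and acts as a partner of the others, while ERBB3 has a nearly inactive kinase and binds neuregulins. In pancreatic cancer EGFR is a drug target.

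RNA was sequenced from SW1990 and PANC-1 cells, established human pancreatic cancer cell lines, to find out what changes in irradiated dying tumor cells. Each line was left unirradiated or received 10 Gy of X-rays, with no other agent or genetic change named. SW1990 cells were grown in 1640 medium and PANC-1 cells in DMEM, both with 10% FBS, so line and medium cannot be told apart. The time between radiation and RNA collection is not given for this experiment. There was 1 library per line and condition, 4 in all, so no value below has a replicate check. The reads counted on genes summed to 17851815 in unirradiated SW1990 cells, 18305682 in irradiated SW1990 cells, 23323266 in unirradiated PANC-1 cells and 20026595 in irradiated PANC-1 cells. A floor of 3 counts is worth 0.129 to 0.168 CPM, a count relative to its library's total on genes.

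Both lines carried epithelial keratins. KRT8, the most abundant of 7 epithelial markers in every library, stood at 1352 and 1888 FPKM (fragments mapped, per length of transcript and per library size) in unirradiated and irradiated SW1990 cells, and at 785.7 and 850.6 FPKM in PANC-1 cells. The epithelial list summed to 2920, 3761, 1410 and 1640 FPKM in the same order. EPCAM and CDH1, which encode epithelial adhesion proteins, were at 217.3 and 140.1 FPKM in unirradiated SW1990 cells but at 2.29 and 0.673 FPKM in unirradiated PANC-1 cells. VIM, the intermediate filament of mesenchymal cells, was at 0.626 FPKM in unirradiated SW1990 cells and 1627 FPKM in unirradiated PANC-1 cells. The mesenchymal list of 5 genes summed to 0.94, 1.49, 1648 and 1671 FPKM. In PANC-1 cells this sum was nearly all VIM, at 1627 and 1650 FPKM. FN1 and SNAI2 were below 1 FPKM in every library. FN1 had 25 counts in irradiated SW1990 cells, against 8 and 9 in unirradiated and irradiated PANC-1 cells. The 4 endocrine markers were at 0 in every library, and the 6 acinar markers summed to at most 0.604 FPKM. Among 6 blood cell markers CD3E was at 0 in every library and CD68 was the most abundant in PANC-1 cells, at 18.8 and 13.9 FPKM, where the list summed to 19.4 and 15.1 FPKM. In SW1990 cells that list summed to 2.48 and 3.53 FPKM, with CD14 the most abundant. Of 6 fibroblast markers COL1A1 alone reached 1 FPKM, and the list summed to 1.4, 2.86, 9.32 and 11.6 FPKM, with COL1A2, DCN and PDGFRA at 0 throughout. The 4 endothelial markers summed to 0.155, 0.309, 6.38 and 5.44 FPKM, with PECAM1 at no more than 2 counts in any library and KDR the most abundant in PANC-1 cells. In these bulk samples fewer cells of a kind and less RNA per cell cannot be told apart.

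Levels per length of transcript are given in FPKM. In unirradiated SW1990 cells the order by FPKM was EREG, AREG, ERRFI1, ERBB2, ERBB3, EGFR, TGFA, BTC, HBEGF and EPGN. The place of EGFR in this order depends on the measure, since its FPKM and its counts differ in this library, as given below. BTC and HBEGF were neighbours at 2.94 and 2.91 FPKM. In irradiated SW1990 cells the first places were AREG and EREG, at 73.3 and 72.0 FPKM. In unirradiated PANC-1 cells the order began with ERRFI1 and EGFR, and after radiation with EGFR and ERRFI1. With 1 library per group there is no spread to separate such neighbours. Among all genes, EREG and AREG held ranks 528 and 631 by FPKM in unirradiated SW1990 cells, and ERRFI1 and EGFR ranks 274 and 337 in unirradiated PANC-1 cells.

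The summed level of the 7 ligands that bind EGFR (the 6 above and EGF) was highest in unirradiated SW1990 cells, at 206.6 FPKM, and 174.1 FPKM in irradiated SW1990 cells. It was 80.6 FPKM in unirradiated PANC-1 cells and 38.2 FPKM after radiation. EREG and AREG together made up most of it in every library. EREG held 49.0%, 41.4%, 58.3% and 57.8% of the sum, in the order of unirradiated and irradiated SW1990 and unirradiated and irradiated PANC-1 cells. AREG held 41.8%, 42.1%, 31.5% and 29.8%. The remaining share differed by line. TGFA held 5.81% and 11.1% in SW1990 cells, against 0.0582% and 0.426% in PANC-1 cells, where HBEGF held 10.2% and 12%.

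The summed level of the 4 receptors was 93.5 and 96.1 FPKM in unirradiated and irradiated SW1990 cells and 156.1 and 128.0 FPKM in PANC-1 cells. In SW1990 cells ERBB2 held 53.5% and 49.5% of the sum, ERBB3 28.2% and 28.3%, and EGFR 18.3% and 22.2%. The EGFR values behind these SW1990 sums and shares depend on the measure, since its counts were 1577 and 3596 where its FPKM values were 17.1 and 21.4. In PANC-1 cells nearly the whole sum was EGFR. EGFR held 93.3% of their receptor sum without radiation and 88.2% with it, ERBB2 6.27% and 10.3%, and ERBB3 0.448% and 1.42%. The ERBB3 shares too depend on the measure, with a log2 fold change of 1.38 by FPKM and 0.65 by counts. ERBB4, a neuregulin receptor, had 0 counts in both SW1990 libraries, which allows up to 0.168 CPM, and 12 and 17 counts in PANC-1 cells.

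In each line the irradiated library was then compared with the unirradiated one gene by gene, by an exact conditional binomial test on the reads. A call needed both a Benjamini-Hochberg q-value under 0.001 and a fold change over 2. Genes below 1 FPKM in both libraries were left out. This test compares libraries, not conditions. All intervals below cover counting error only. Those of fold changes are 95% Clopper-Pearson intervals, and those of differences between the lines' responses are not. In SW1990 cells 655 of 15731 genes were called (4.16%; 2.26% higher and 1.9% lower). Of the 10 ligand, receptor and inhibitor genes 9 were tested there and 1, EGFR, was called higher. In PANC-1 cells 718 of 15159 genes were called (4.74%; 2.53% higher and 2.2% lower). Of the 10 genes 7 were tested there and 3, AREG, EREG and ERRFI1, were called lower, and none of these 7 was called higher. The median log2 fold change of the tested genes of this group was -0.00 for SW1990 and -0.89 for PANC-1, where all genes tested had medians of -0.00 and 0.00. AREG and EREG are neighbours in the genome and may not move independently. At an assumed coefficient of variation of 0.2 between replicates, 0 of the 10 genes were called in either line (edgeR exactTest). The fit of all 4 libraries estimated 0.218, but there the lines stand in for replicates. That value thus holds the difference in response between the lines, and the spread between replicates is not known.

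**Figure D1:**
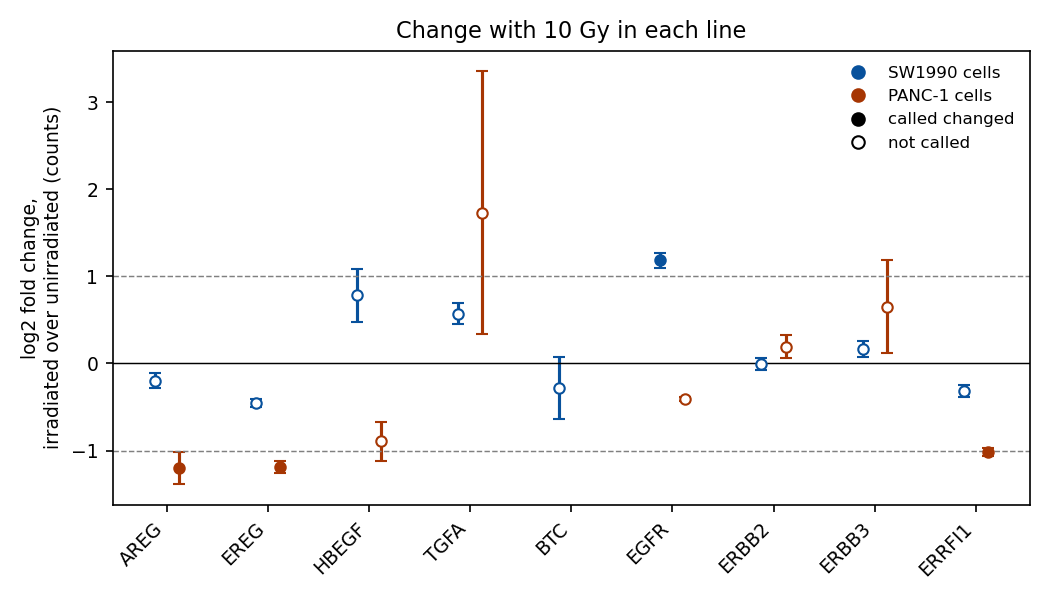
log2 fold change of counts, irradiated over unirradiated, for 9 of the 10 genes (vertical axis; points, with bars for the 95% counting interval; filled where called). AREG, EREG and ERRFI1 lie at or below -1 in PANC-1 cells and above it in SW1990 cells, EGFR lies above 1 in SW1990 cells, BTC had too few reads in PANC-1 cells, and EPGN had no reads.

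AREG (ENSG00000109321) encodes amphiregulin, a low-affinity EGFR ligand of epithelia. It had 2259 and 1977 counts in unirradiated and irradiated SW1990 cells, and 874 and 343 counts in PANC-1 cells. The irradiated PANC-1 library was the lowest of the 4. AREG fell in PANC-1 cells, with a log2 fold change of -1.20 (-1.38 to -1.02), a 2.30-fold lower value. In SW1990 cells the log2 fold change was -0.20 (-0.29 to -0.11), which was not called.

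EREG (ENSG00000124882) encodes epiregulin, a ligand of EGFR and ERBB4. It had 8984 and 6590 counts in unirradiated and irradiated SW1990 cells, and 5800 and 2297 counts in PANC-1 cells. EREG fell in PANC-1 cells, with a log2 fold change of -1.19 (-1.26 to -1.12), a 2.28-fold lower value. In SW1990 cells the log2 fold change was -0.45 (-0.50 to -0.41), of the same sign and not called. The irradiated library was thus the lower one in both lines for AREG and for EREG.

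AREG and EREG lie on the same strand of chromosome 4 (GRCh38), EREG at chr4:74365143-74388751 and AREG at chr4:74445134-74455009. The stretch from EPGN to BTC, chr4:74308473-74794686, held 6 annotated genes. Besides EREG and AREG these were EPGN, BTC and the non-coding genes AC021180.1 and AC239584.1. EPGN (ENSG00000182585), which encodes epigen, had 0 counts in all 4 libraries, and so had AC021180.1. AC239584.1 had 4 and 13 counts in SW1990 cells and 0 in both PANC-1 libraries. BTC (ENSG00000174808), which encodes betacellulin and lies on the opposite strand at chr4:74744759-74794686, had 150 and 124 counts in SW1990 cells and 2 and 0 in PANC-1 cells. Its log2 fold change in SW1990 cells was -0.28 (-0.64 to 0.07), an interval that includes 0. By FPKM it was -0.59. A locus without a gene name that overlaps BTC on the same strand had 31 counts in irradiated SW1990 cells and 0 in the other libraries.

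The bases before the start sites of the genes that fell in PANC-1 cells are shown because these genes were called in the same direction there, with HBEGF beside them as a ligand that was also lower there but did not reach the limit of 2. RefSeq (GRCh38.p14) gave promoters for 9 of the 10 genes. Each sequence is 250 bases long, is read 5′ to 3′ on the strand of the gene and ends just before the annotated start, and capitals mark matches to the TATA motif TATAAA, the CRE motif TGACGTCA, the AP-1 motif TGANTCA, the GC box GGGCGG or the CArG box, searched on both strands. The windows are chr4:74444886-74445135 for AREG and chr4:74364895-74365144 for EREG (plus strand), and chr1:8026310-8026559 for ERRFI1 and chr5:140346604-140346853 for HBEGF (minus strand).
AREG: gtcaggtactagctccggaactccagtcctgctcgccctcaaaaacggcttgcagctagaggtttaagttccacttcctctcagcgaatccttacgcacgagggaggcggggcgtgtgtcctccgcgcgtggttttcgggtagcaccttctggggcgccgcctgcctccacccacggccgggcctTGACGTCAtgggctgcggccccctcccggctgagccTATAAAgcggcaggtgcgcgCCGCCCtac
EREG: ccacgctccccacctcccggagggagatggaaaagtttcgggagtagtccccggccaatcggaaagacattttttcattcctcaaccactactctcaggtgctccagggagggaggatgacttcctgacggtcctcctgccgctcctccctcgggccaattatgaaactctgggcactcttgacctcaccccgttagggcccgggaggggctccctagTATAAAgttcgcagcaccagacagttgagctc
ERRFI1: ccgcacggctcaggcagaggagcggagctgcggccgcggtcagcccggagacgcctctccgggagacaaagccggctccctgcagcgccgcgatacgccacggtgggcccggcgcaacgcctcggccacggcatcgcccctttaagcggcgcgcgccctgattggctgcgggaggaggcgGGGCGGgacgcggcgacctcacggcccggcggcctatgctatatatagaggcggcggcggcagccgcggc
HBEGF: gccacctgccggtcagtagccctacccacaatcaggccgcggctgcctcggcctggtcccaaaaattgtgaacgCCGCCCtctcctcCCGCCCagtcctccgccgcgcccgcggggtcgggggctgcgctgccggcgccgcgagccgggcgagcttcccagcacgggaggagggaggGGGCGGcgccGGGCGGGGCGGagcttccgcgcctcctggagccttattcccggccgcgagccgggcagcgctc
Counted back from the start site, TATAAA lay at -29 to -24 in AREG and at -32 to -27 in EREG, and not in the windows of ERRFI1 and HBEGF. It also lay at -29 to -24 before EPGN, which had no reads, and in the window of a second EGFR start site. It was found in 10.7% of 35116 promoters of this length. Variants of TATAAA were not searched, and the window of ERRFI1 holds the unmarked letters TATATATA near the start site. AREG also held a CRE at -65 to -58, which 1.65% of promoters held, and the letters of the GC box at -9 to -4. ERRFI1 held 1 GC box, at -70 to -65. HBEGF held 5, of which those at -63 to -58 and at -58 to -53 share a base, and 42.6% of promoters held at least 1. AP-1 letters (6.57% of promoters) and the CArG box (1.16%) were not in these 4 windows. A match describes letters and does not show that a factor binds.

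HBEGF (ENSG00000113070, chr5:140332843-140346631) encodes heparin-binding EGF-like growth factor, a ligand of EGFR and ERBB4. It had 143 and 247 counts in unirradiated and irradiated SW1990 cells, and 508 and 247 counts in PANC-1 cells. Its values thus lay in opposite orders in the lines, higher with radiation in SW1990 cells and lower with radiation in PANC-1 cells. The log2 fold change was 0.78 (0.48 to 1.09) in SW1990 cells and -0.89 (-1.12 to -0.67) in PANC-1 cells. Neither was called at a fold change of 2, and both were called at a limit of 1.5.

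TGFA (ENSG00000163235, chr2:70447280-70554193) encodes transforming growth factor alpha, a high-affinity EGFR ligand. It had 975 and 1455 counts in SW1990 cells and only 6 and 18 in PANC-1 cells. The log2 fold change was 0.57 (0.45 to 0.69) in SW1990 cells, which was not called. In PANC-1 cells it was below 1 FPKM in both libraries and not tested, with a log2 fold change of 1.73 (0.34 to 3.36). TGFA-IT1, a gene within TGFA, had at most 8 counts in any library.

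EGFR (ENSG00000146648, chr7:55019021-55211628) encodes the receptor of all these ligands. It had 1577 and 3596 counts in unirradiated and irradiated SW1990 cells, and 31834 and 21610 counts in PANC-1 cells. By counts EGFR rose in SW1990 cells, with a log2 fold change of 1.18 (1.10 to 1.27), a 2.27-fold higher value. In PANC-1 cells the log2 fold change was -0.41 (-0.43 to -0.38) and was not called. EGFR-AS1, which lies in the gene on the other strand, had 0 counts in every library.

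The rise of EGFR in SW1990 cells was smaller and not called from the FPKM values. These were 17.1 and 21.4 in unirradiated and irradiated SW1990 cells, a log2 ratio of 0.32, and 145.6 and 112.8 in PANC-1 cells, a log2 ratio of -0.37. The gap between both measures in SW1990 cells, -0.86 on the log2 scale, was reached by 206 of 15056 genes (1.37%), and 95% of genes lay within 0.51. A count divided by its FPKM and by the library total gives the transcript length that both values imply. Among genes with 1 annotated transcript this length was 1.22 to 1.25 times the annotated one (medians of the 4 libraries), and it was divided by that factor. For EGFR it came to 4.2 kb in unirradiated and 7.53 kb in irradiated SW1990 cells, and to 7.56 and 7.65 kb in PANC-1 cells. EGFR has 11 annotated transcripts of up to 9.82 kb (GENCODE 29). The unirradiated SW1990 library was thus the one that stood apart. Which of both measures follows the amount of EGFR mRNA was not tested.

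ERBB2 (ENSG00000141736, chr17:39687914-39730426) had, by counts, the smallest fold change of the tested genes of this group in both lines. It had 2996 and 2997 counts in SW1990 cells and 943 and 973 counts in PANC-1 cells. The log2 fold change was -0.00 (-0.08 to 0.07) in SW1990 cells, with a sign that depended on the library scaling, and 0.19 (0.06 to 0.33) in PANC-1 cells. By FPKM it was -0.07 and 0.44, and ERBB3 in SW1990 cells and EGFR in PANC-1 cells were then nearer to 0. PGAP3 and MIEN1 overlap ERBB2 on the other strand. They had 352 and 194 counts in unirradiated SW1990 cells and 259 and 221 in unirradiated PANC-1 cells, and whether the counting used strand is not given, so reads in the overlaps cannot be told apart.

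ERBB3 (ENSG00000065361, chr12:56079857-56103505) had 1820 and 2048 counts in SW1990 cells and 53 and 75 counts in PANC-1 cells. The log2 fold change was 0.16 (0.07 to 0.26) in SW1990 cells and 0.65 (0.12 to 1.19) in PANC-1 cells, neither of them called. In PANC-1 cells the FPKM values were 0.699 and 1.82, a log2 ratio of 1.38. The gap of 0.73 to the counts was reached by 2.31% of genes, and the implied transcript length was 2.62 and 1.65 kb. ERBB2 and ERBB3 showed no change that passed the test in either line.

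**Figure D2:**
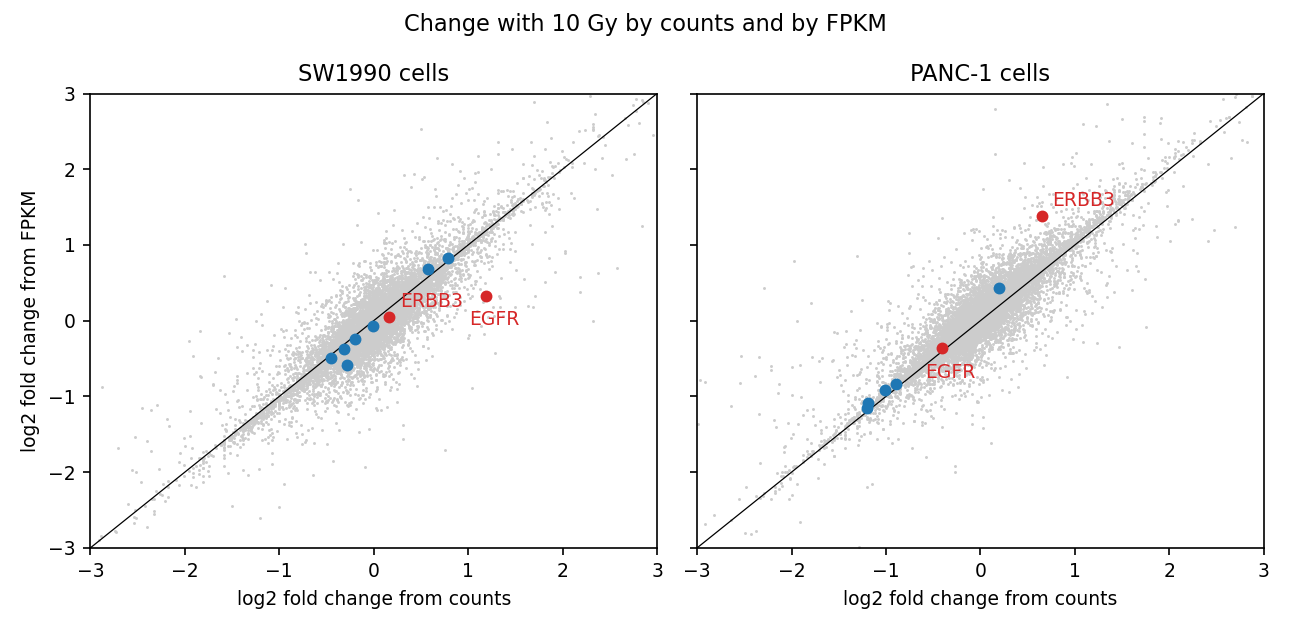
log2 fold change with 10 Gy from counts (horizontal axis) against that from FPKM (vertical axis) in each line; grey points are all genes tested with both changes within 3, blue and red points the ligand, receptor and inhibitor genes, and the line marks equal values. EGFR lies below the line in SW1990 cells (1.18 against 0.32) and ERBB3 above it in PANC-1 cells (0.65 against 1.38).

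ERRFI1 (ENSG00000116285, chr1:8004404-8026308), also known as MIG6, encodes a protein that binds the kinase domains of EGFR and ERBB2 and is itself induced by their signalling. It had 3680 and 2972 counts in SW1990 cells and 13445 and 5992 counts in PANC-1 cells. ERRFI1 fell in PANC-1 cells, with a log2 fold change of -1.02 (-1.06 to -0.97), a 2.02-fold lower value that lay close to the limit. The call was lost with library totals in place of TMM scaling, at -0.95, and with FPKM, at -0.92. In SW1990 cells the log2 fold change was -0.31 (-0.38 to -0.24), not called. In PANC-1 cells the inhibitor and the ligands AREG and EREG were thus called lower, while EGFR itself was not called.

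The difference between the radiation responses of the lines was computed for the 8 genes with more than 3 counts in every library. Without replicates it cannot be tested, and only its counting interval is given. The log2 fold change in SW1990 cells minus that in PANC-1 cells was 1.67 (1.3 to 2.04) for HBEGF and 1.59 (1.5 to 1.68) for EGFR, both of opposite sign in the lines. It was 1.0 (0.80 to 1.2) for AREG, 0.73 (0.65 to 0.82) for EREG and 0.70 (0.62 to 0.79) for ERRFI1, which were below 0 in both lines. For ERBB2 it was -0.20 (-0.35 to -0.05). The intervals of TGFA, -1.16 (-2.50 to 0.18), and ERBB3, -0.49 (-1.0 to 0.03), included 0. From FPKM the difference was 0.69 for EGFR, -0.51 for ERBB2 and -1.33 for ERBB3, each over 1.5 times larger or smaller than from counts, and no interval is given for it.

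The response common to both lines was fitted over all 4 libraries with edgeR's quasi-likelihood test, with the line as a covariate and 1 residual degree of freedom. Of 18180 genes, 0 (0%) passed an adjusted p of 0.05, while 833 had an unadjusted p under 0.05. DESeq2 called 39 genes and limma-trend 0, and none of the 10 genes was among them. The fitted log2 fold changes were -0.81 for EREG, -0.68 for AREG, -0.66 for ERRFI1 and 0.83 for TGFA, each with an adjusted p of 0.936 in edgeR. The adjusted p of the other 5 fitted genes lay between 0.936 and 0.994. In both lines EREG, AREG and ERRFI1 were lower and TGFA was higher in the irradiated library. EGFR and HBEGF, with fitted log2 fold changes of 0.39 and -0.07, were averages of values of opposite sign.

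Before radiation the lines differed in most of these genes. The comparison uses the same unirradiated libraries as the comparisons above. Of 16626 genes 5975 were called between unirradiated SW1990 and PANC-1 cells (35.9%; 17.6% higher and 18.3% lower in SW1990 cells). Of the 10 genes 9 were tested and 8 called, 5 higher and 3 lower in SW1990 cells. Of these 8, TGFA, BTC and ERBB3 passed the limit of 1 FPKM only through unirradiated SW1990 cells, where they were high. In unirradiated PANC-1 cells they were at 0.0469, 0.01245 and 0.699 FPKM, so the filter itself favoured their direction. At an assumed coefficient of variation of 0.4 between replicates, 1635 of all genes and fewer of these 8 stayed called, as given in the last section. With scaling by library totals in place of TMM, the median log2 fold change of all genes in this comparison was 0.196, against -0.0003.

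Of the ligands, TGFA was 185.3-fold higher in SW1990 cells (log2 fold change 7.53, interval 6.41 to 8.98). BTC had 150 counts against 2, a ratio with a counting interval of 23.3 to 712.0. AREG was higher in SW1990 cells, at 1.56 (1.45 to 1.67). EREG, at 0.82 (0.77 to 0.87), was not called, but it was called with library totals, at 1.02, and with FPKM, at 1.11. HBEGF was lower in SW1990 cells, at -1.64 (-1.92 to -1.37).

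Of the receptors, ERBB3 was 39.2-fold and ERBB2 3.62-fold higher in SW1990 cells, log2 fold changes of 5.29 (4.90 to 5.71) and 1.86 (1.75 to 1.96). EGFR was 17.7-fold lower in SW1990 cells by counts, at -4.15 (-4.22 to -4.07), and its log2 ratio of FPKM was -3.09. ERRFI1 was lower in SW1990 cells, at -1.68 (-1.73 to -1.63). The epithelial marker sum was also higher in SW1990 cells, and the mesenchymal one, in PANC-1 cells nearly all VIM, was lower. The values are given above, and the part of these sums in the differences between the lines was not tested.

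In the fit of all 4 libraries, where the libraries of a line stand in for replicates, 7921 of 18180 genes (43.6%) passed an adjusted p of 0.05 for the line. Of the 9 fitted genes 8 passed. The adjusted p in edgeR's quasi-likelihood test was 0.000804 for ERBB3, 0.000898 for TGFA, 0.00197 for ERBB2, 0.00337 for BTC, 0.00592 for EGFR, 0.00714 for AREG, 0.0104 for ERRFI1 and 0.0153 for EREG. HBEGF, with 247 counts in each irradiated library, had an adjusted p of 0.226.

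The other ligands and the fourth receptor of the family were also read. EGF itself had 51 and 122 counts in SW1990 cells and 0 and 2 in PANC-1 cells. EGF rose in SW1990 cells, with a log2 fold change of 1.25 (0.77 to 1.75), and by FPKM at 1.09. This call was lost at an assumed coefficient of variation of 0.2 between replicates. Against a floor of 3 counts per library EGF was 19.4-fold lower in unirradiated PANC-1 cells, a value that leaves out the counting error of the 51 counts. NRG1, the neuregulin with the most reads, had 0 counts in both SW1990 libraries and 1781 and 905 in PANC-1 cells. Against the same floor it was 520.8-fold higher in unirradiated PANC-1 cells, again without counting error. Its log2 fold change with radiation was -0.83 (-0.94 to -0.71) by counts, which was not called, and -0.23 by FPKM. NRG2 had 24 and 24 counts in SW1990 cells and 269 and 298 in PANC-1 cells. NRG3 and NRG4 had at most 2 and 8 counts in any library. PANC-1 cells thus had reads of NRG1 and NRG2 but few of ERBB3, and SW1990 cells the reverse.

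The rest of the pathway was read from 7 lists of genes chosen by function. Of all genes tested 4.16% were called for SW1990 and 4.74% for PANC-1, and a single call in a list of 6 to 18 genes does not set that list apart. At an assumed coefficient of variation of 0.2 between replicates, 0 list genes were called in SW1990 cells, and fewer than by the read test in PANC-1 cells. Of the ligand shedding list (8 of 10 tested in SW1990 cells, 7 in PANC-1 cells) 0 were called in either line, with medians of 0.08 and -0.04. ADAM17, the main sheddase of AREG and TGFA, had 1110 and 985 counts in SW1990 cells and 1926 and 1252 in PANC-1 cells, log2 fold changes of -0.18 and -0.47. RHBDF2, a partner that carries ADAM17 to the cell surface, was at 0.44 and 0.30. ADAM15, another metalloprotease of the list, was at 0.20 and 0.33, and in SW1990 cells at -0.13 by FPKM.

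Of 18 adaptors and members of the RAS-MAPK cascade, all tested, 1 was called for SW1990 and 0 for PANC-1, with medians of -0.06 and -0.08. GRB2, the adaptor that links the receptor to RAS activation, had 1755 and 722 counts in SW1990 cells and 1736 and 957 in PANC-1 cells. It fell in SW1990 cells, with a log2 fold change of -1.29 (-1.41 to -1.16), and stood at -0.71 (-0.82 to -0.59) in PANC-1 cells, not called. Both irradiated libraries were thus lower than both unirradiated ones. The docking protein gene GAB2 was at 0.46 and -0.44, and MAP2K1, which encodes the kinase MEK1, at 0.31 and 0.40.

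Of the PI3K-AKT branch 1 of 10 tested genes was called higher in SW1990 cells and 0 of 11 in PANC-1 cells, with medians of -0.04 and 0.03. PDPK1, the kinase that activates AKT, had 603 and 1976 counts in SW1990 cells and 633 and 1049 in PANC-1 cells. Its log2 fold change by counts was 1.71 (1.57 to 1.84) and 0.88 (0.73 to 1.02). By FPKM it was 0.33 and 0.37, and the implied transcript length was 1.92 and 4.93 kb in SW1990 cells, so the call holds for counts only. The call was also lost at an assumed coefficient of variation of 0.2 between replicates. PDPK1 has a near-identical copy nearby that may share its reads, which was not tested, so its values are uncertain. The regulatory subunit genes PIK3R3 and PIK3R1 were at 0.31 and -0.19 in SW1990 cells and at 0.31 and 0.38 in PANC-1 cells.

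Of the receptor attenuation list (12 of 13 and 11 of 13 tested) 0 were called in either line, with medians of 0.13 and -0.05. RNF41, a ubiquitin ligase of ERBB3, was at 0.21 and -0.46, and in SW1990 cells at -0.23 by FPKM. TNK2 was at -0.24 and 0.35, and CBLB, a ubiquitin ligase of EGFR, at -0.17 and -0.41. Of 6 receptor internalisation genes 0 were called in SW1990 cells, with a median of 0.31, and 1 in PANC-1 cells, with a median of -0.07. SH3KBP1, which encodes the CBL partner CIN85, had 732 and 1074 counts in SW1990 cells and 2707 and 1027 in PANC-1 cells. It fell in PANC-1 cells, with a log2 fold change of -1.25 (-1.35 to -1.14), and was at 0.55 (0.41 to 0.69) in SW1990 cells, not called. EPN2 was at 0.35 and 0.45, and SH3GL1 at 0.59 and 0.11, the last of these at -0.06 by FPKM.

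Genes that ERK signalling induces were listed as feedback inhibitors and as output, with 4 genes on both lists. Of the feedback list 0 of 9 tested genes were called in SW1990 cells (median 0.34), and 1 was called higher and 1 lower among 8 in PANC-1 cells (median -0.09). SPRY1, a Sprouty inhibitor of receptor signalling, had 147 and 79 counts in SW1990 cells and 126 and 483 in PANC-1 cells. It rose in PANC-1 cells, with a log2 fold change of 2.09 (1.8 to 2.38) by counts and 1.32 by FPKM, while it was at -0.90 (-1.31 to -0.50) in SW1990 cells, not called. DUSP5, a nuclear ERK phosphatase, had 488 and 768 counts in SW1990 cells and 3337 and 1504 in PANC-1 cells. Its log2 fold change in PANC-1 cells, -1.0 (-1.09 to -0.91), lay at the limit, and its call was lost with library totals, at -0.93, and with FPKM, at -0.94. In SW1990 cells it was at 0.65 (0.48 to 0.82). DUSP6, a cytoplasmic ERK phosphatase, was at 0.36 and -0.57.

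Of the ERK output list 0 of 9 tested genes were called in SW1990 cells and 0 of 8 in PANC-1 cells, with medians of 0.19 and -0.09. EPHA2, a receptor kinase gene, had 8602 and 10841 counts in SW1990 cells and 16823 and 12238 in PANC-1 cells, log2 fold changes of 0.33 (0.29 to 0.37) and -0.31 (-0.34 to -0.28). The transcription factor gene ETV5 was at 0.19 in SW1990 cells by counts and -0.52 by FPKM, and at -0.52 in PANC-1 cells.

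Over the 4 libraries, the genes with the pattern nearest to that of EGFR were AC140479.5, MALL and PEAR1 among 13228 genes, by the Euclidean distance of centred log2 CPM (0.24, 0.38 and 0.42). MALL, which encodes a membrane raft protein, had 332 and 758 counts in SW1990 cells and 5100 and 4902 in PANC-1 cells. The genes nearest to EREG were WASHC3, LINC01881 and TMCC3 (0.15, 0.17 and 0.20). WASHC3 had 356 and 272 counts in SW1990 cells and 227 and 102 in PANC-1 cells. With 4 points the likeness is a description only. For EGFR it rests on counts, and the value in unirradiated SW1990 cells depends on the measure, as given above. By counts EGFR also differed more between the lines than between the conditions.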

How the data were processed

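Total RNA of 4 samples was sequenced in paired ends. The submitters' processing notes name CASAVA 1.8, FastQC 0.11.2, Trimmomatic 0.36, HISAT2 2.0, StringTie 1.3.3b and DESeq2 1.12.4 with GRCh38. The authors deposited FPKM values from StringTie, scaled to transcript length and library size, and read counts without normalization; the tool and strand setting behind the counts are not given in the sources used here. An mRNA kit is named in the methods, while the sample record names removal of ribosomal RNA. The 1089 rows that name no gene, with 0.453% to 0.635% of the counts of a library, were left out.

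Genes with at least 1 FPKM in at least 1 of the libraries compared were tested on counts (scipy 1.17.1, exact conditional binomial test, 2-sided, TMM sizes from edgeR 4.0.16 in R 4.3.3, Benjamini-Hochberg adjustment; q below 0.001 and fold above 2; a value of 0 set to 0.01). No fold was given where a library had 3 counts or fewer, except where it is stated to be against that floor. The 4 libraries were also fitted with edgeR's quasi-likelihood test; DESeq2 1.42.0 and limma 3.58.1 gave alternatives. Scripts were tested on simulated data.

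The genes and lists were chosen with earlier results of these data known. Named were the 10 genes, 6 further ligands and receptors, from each list the called genes and the 3 with the largest mean absolute fold change (at least 50 counts in every library), the 3 nearest in pattern to EGFR and EREG, and genes that overlap the 10. Intervals cover counting error only.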

Additional observations from a re-analysis of the deposited data

Results flagged for a closer look

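Several named genes had log2 fold changes of opposite sign in the lines, each with a counting interval that excluded 0. The value in SW1990 cells minus that in PANC-1 cells was 1.67 for HBEGF and 1.59 for EGFR, the latter 0.69 by FPKM. Among the list genes it was 1.8 for SH3KBP1, 1.65 for DUSP5, 0.94 for DUSP6, 0.91 for GAB2, 0.70 for ETV5, 0.67 for RNF41 and 0.64 for EPHA2. It was below 0 for SPRY1, at -2.99, TNK2, at -0.59, and PIK3R1, at -0.57. By FPKM the log2 ratios of SPRY1 lay closer together, at -0.57 for SW1990 and 1.32 for PANC-1. By FPKM, RNF41 and ETV5 were below 0 in both lines. Of 12728 genes compared in both lines, 44.9% had opposite signs, and in 2.94% they did so with a difference at least as large as that of EGFR by counts (2.55% for HBEGF). With 1 library per line and condition these differences were not tested.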

How the results depend on the processing

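With 1 library per group, leaving out a replicate was not possible: 3 libraries leave the joint fit no residual degree of freedom. An assumed coefficient of variation of 0.2 between replicates left 99 calls in SW1990, 100 in PANC-1 and 3637 between the unirradiated lines, and 0.4 left 15, 10 and 1635 (655, 718 and 5975 by the read test). Of the 10 genes, 0 were then called with radiation in SW1990 and 0 in PANC-1 at either value, and 4 of 8 between the lines at 0.4. Of the genes of the 7 pathway lists and the list of other family ligands and receptor (together 3, 3 and 30 called), 0 and 1 were called with radiation at 0.2, 0 and 0 at 0.4, and 8 between the lines at 0.4. A limit of 5 FPKM left 306, 318 and 3713 calls. A fold limit of 1.5 gave 1461 calls in SW1990, with 2 of the 10 genes and 8 of the lists, and 1787 in PANC-1, with 6 of the lists. With log2 ratios of FPKM, 0 of the 10 genes were called in SW1990. With FPKM + 1, 336 and 347 genes were called with radiation, 0 of the 10 genes in SW1990 and 1 list gene in each line. DESeq2 called 39 genes for radiation over both lines. The labels give no replicate numbers, and the line served as the replicate block; with no replicate block, 0 genes passed (41 unadjusted), and the fitted log2 fold change of EGFR was -0.27 against 0.39. Over all alternatives 89 counts of calls stayed within 1.5 times of those reported and 31 moved, and no called value changed sign. Except where fewer genes were tested, the cause was not tested.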
